A study of Mus musculus with 14 samples.

Results

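Glucose reaches the brain through facilitative transporters, and what becomes of it depends on a checkpoint at the mitochondrion. Slc2a1 (GLUT1) carries glucose across the blood-brain barrier endothelium and into glia, Slc2a3 (GLUT3) is the main transporter of neurons, and Slc2a4 (GLUT4) is the insulin-responsive transporter best known from muscle and fat. The monocarboxylate transporters Slc16a1 (MCT1) and Slc16a7 (MCT2) move lactate, pyruvate and ketone bodies, the first mainly in endothelium and glia and the second in neurons. Pdk1, Pdk2, Pdk3 and Pdk4 encode the pyruvate dehydrogenase kinases, which phosphorylate and switch off the enzyme complex that turns pyruvate into acetyl-CoA. In muscle and liver, fasting is known to raise Pdk4 and so to spare glucose. These 9 genes, 5 transporters and 4 kinases, were picked by name with earlier results of these data known. All 9 were among the 17097 genes measured. The kinases act on pyruvate dehydrogenase and are not pyruvate kinases.

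The tissue was whole hypothalamus from mice 12 weeks old, on a mixed C57Bl/6J, FVB/N and 129 background, and each of 14 Affymetrix arrays was started from 150 ng of total RNA. The groups were POMCMfn1KO mice fasted for 16 h (knockout fasted, n = 3), POMCMfn1KO mice fed at will (knockout fed, n = 4), control mice fasted for 16 h (control fasted, n = 3) and control mice fed at will (control fed, n = 4). The knockout removes Mfn1, a mitochondrial fusion protein, from neurons that express POMC, which are few among the cells of this tissue, so most RNA in a knockout sample comes from cells the deletion does not target. The labels give neither the Cre line, nor what alleles the controls carry, nor the animals behind each array. All p-values therefore refer to the scatter among these arrays, which may be technical. The comparisons ask how a fast and the deletion alter these genes and whether the fasting difference depends on the genotype.

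Values are deposited log2 expression values, on which a difference of 1 is a doubling, and are compared only within a probe set, the group of array probes made for a transcript. Each gene is represented by the probe set that names it alone and has the highest mean. Mfn1 lay between 8.99 and 9.12 on all 14 arrays, but a deletion in so few cells could hardly show in whole tissue, so its level is no check of the genotype labels. Of 11 hypothalamic markers 10 were measured. The neuropeptide genes Pmch, Avp, Oxt and Hcrt averaged 12.42, 10.68, 10.62 and 10.55, Npy, Trh and Pomc 9.14, 7.48 and 7.04, and the transcription factor genes Sim1, Nr5a1 and Otp 6.38, 4.54 and 3.83, where background probe sets had a median of 3.64. Control fed replicate 1 had the lowest hypothalamic score (the mean centred value of these markers), -0.603, and the highest cortical score, 0.711. The numbers in the sample titles form a lower and a higher run of 7 arrays each. All 6 fasted arrays and knockout fed replicate 1 are in the lower run, and the other 7 fed arrays are in the higher one. What the numbers stand for is not stated, and in control mice they cannot be told apart from the fast.

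Promoter sequences from RefSeq (GRCm38.p6, 250 bases before to 50 bases after the start site) were at hand for 6 of the 9 genes. The 3 shown belong to the genes that were higher after the fast and matched an entry. Capitals mark searched motifs: AGAACA (glucocorticoid receptor half-site), AGGTCA (nuclear receptor half-site), GTAAACA (FOXO), CACGTG (E-box) and ACGTG (hypoxia response core, which lies within the E-box) on both strands, and TATAAA on the gene's strand.
Slc2a1, chr4:119108495-119108794, plus strand: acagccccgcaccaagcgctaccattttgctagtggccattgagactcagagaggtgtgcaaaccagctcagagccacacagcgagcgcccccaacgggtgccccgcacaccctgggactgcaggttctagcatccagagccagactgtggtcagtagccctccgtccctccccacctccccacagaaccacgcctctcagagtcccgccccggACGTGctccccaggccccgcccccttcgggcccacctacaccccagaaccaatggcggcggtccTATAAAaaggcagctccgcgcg
Pdk2, chr11:95041322-95041621, minus strand: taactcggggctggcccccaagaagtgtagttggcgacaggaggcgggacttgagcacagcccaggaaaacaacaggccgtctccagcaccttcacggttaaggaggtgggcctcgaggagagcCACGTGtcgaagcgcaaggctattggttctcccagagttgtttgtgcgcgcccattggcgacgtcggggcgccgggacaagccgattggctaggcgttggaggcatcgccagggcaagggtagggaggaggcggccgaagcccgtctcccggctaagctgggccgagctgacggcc
Pdk4, chr6:5496229-5496528, minus strand: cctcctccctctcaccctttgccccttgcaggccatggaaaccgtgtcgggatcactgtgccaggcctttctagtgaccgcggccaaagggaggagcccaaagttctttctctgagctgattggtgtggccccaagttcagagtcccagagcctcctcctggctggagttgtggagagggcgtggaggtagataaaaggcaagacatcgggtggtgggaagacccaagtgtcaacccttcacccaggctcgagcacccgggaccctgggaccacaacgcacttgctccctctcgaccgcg
The Slc2a1 window holds ACGTG, found in 19.6% of 32817 promoters of this length, and TATAAA, found in 8.32%. This TATAAA lies after the annotated start site, at bases 28 to 33 from it, not before it. The Pdk2 window shown, at the gene's outermost start site, holds CACGTG, found in 7.15%, and a window at a second Pdk2 start site holds none of the 6 motifs. None of the 6 motifs is in the Pdk4 window. Of the others, AGAACA is in 19.0%, AGGTCA in 16.3% and GTAAACA in 3.65% of all promoters.

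Fasting split the group. Averaged over the genotypes, 4 genes rose (Pdk4, Slc2a4, Slc2a1 and Pdk2), Slc16a7 fell, and Slc2a3, Slc16a1, Pdk1 and Pdk3 did not pass the test. These 5 of 9 calls stand against 10.0% of all 17097 genes, of which 5.14% were higher and 4.90% lower. Because the 9 genes were chosen with earlier results of these data known, their share is no independent test of the group. The test was limma over all 14 arrays, with p-values adjusted over all genes by the Benjamini-Hochberg method and called below 0.05. The median log2 difference of the 9 genes was 0.01, and that of all genes 0.00. In bulk tissue, fewer cells of a type and less RNA per cell cannot be told apart. With the run of title numbers as a covariate, which rests on knockout fed replicate 1, 0 of the 9 passed, although the 5 log2 differences kept their sign, at 1.37 for Pdk4, 0.71 for Slc2a1, 0.63 for Slc2a4, 0.47 for Pdk2 and -0.30 for Slc16a7.

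**Figure D1:**
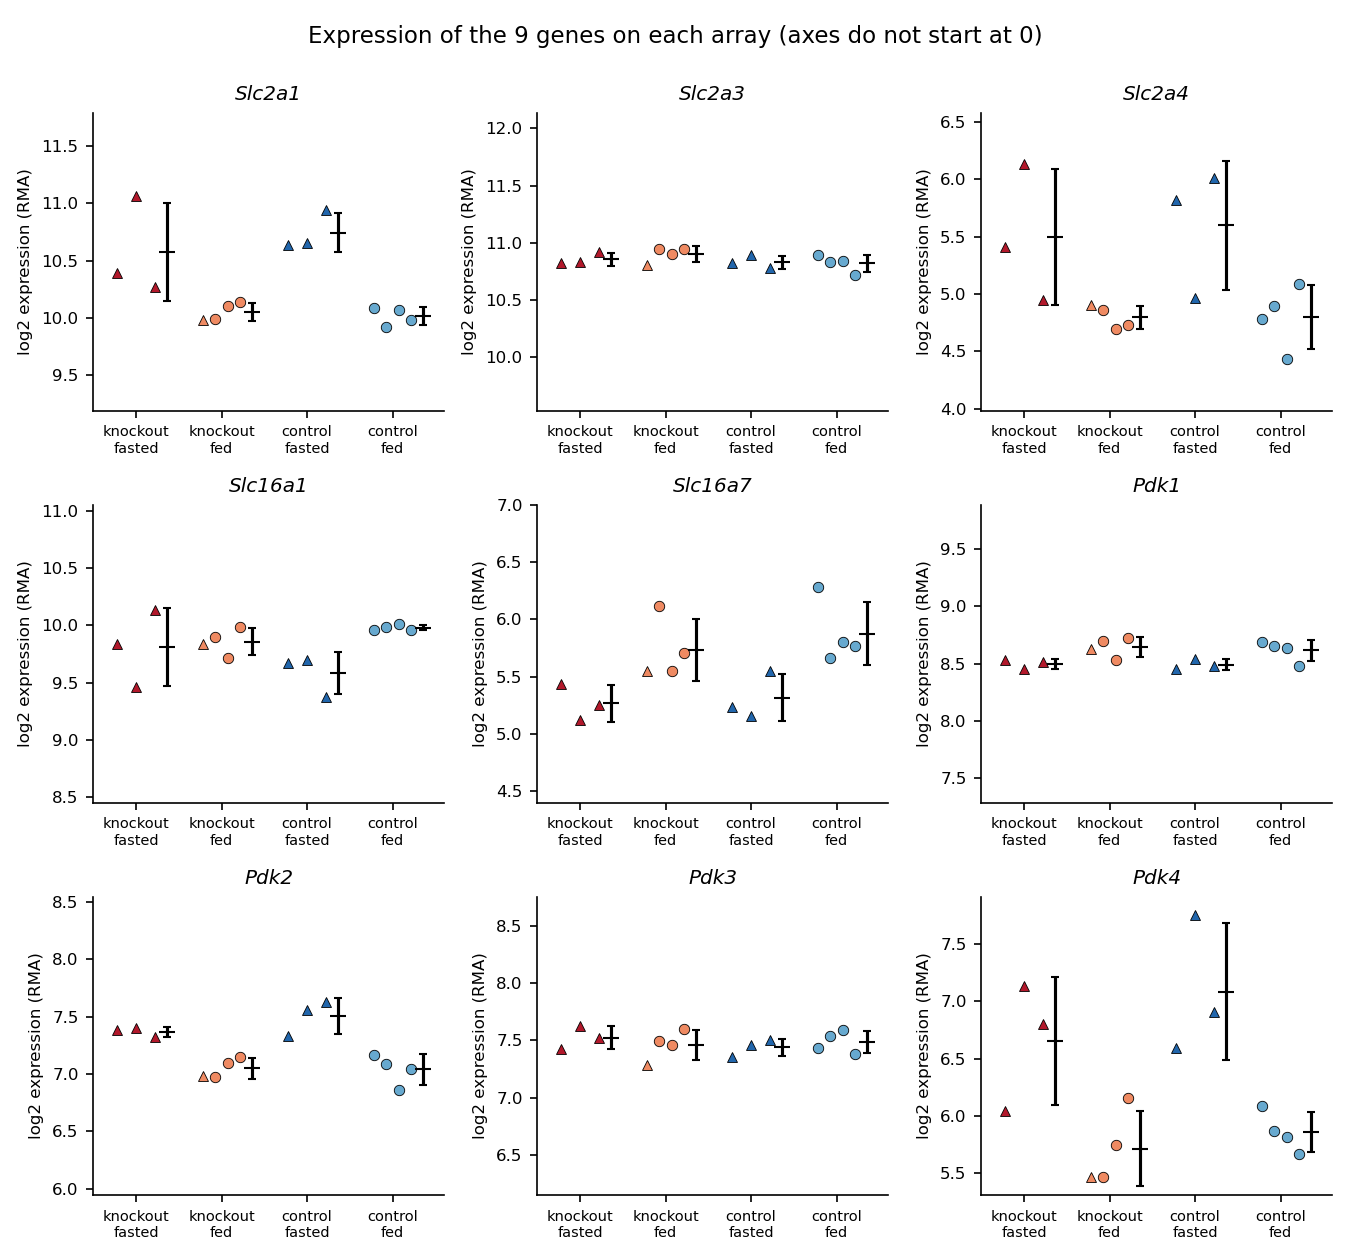
Log2 expression (RMA) of each of the 9 genes, with 1 point per array, black bars for the mean ± SD of a group (n = 3 fasted, 4 fed), triangles for the lower and circles for the higher run of title numbers. Slc2a1 and Pdk2 are higher on all 6 fasted arrays than on any fed array, whereas Slc2a3 and Pdk3 lie at one level across the groups.

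Slc2a1, the barrier and glial glucose transporter, stood at 10.39, 11.06 and 10.27 in knockout fasted mice, against 9.98, 9.99, 10.10 and 10.14 in knockout fed mice. In control fasted mice it stood at 10.64, 10.65 and 10.94, against 10.09, 9.92, 10.07 and 9.98 in control fed mice. All 6 fasted arrays exceeded all 8 fed arrays. Across genotypes Slc2a1 rose by 0.62 ± 0.10 on the log2 scale (SE), or 1.54-fold (limma, adjusted p = 0.00302). A second probe set of the gene rose by 0.72 ± 0.12 (adjusted p over all probe sets = 0.00307), again with every fasted array above every fed array. The spread was uneven: knockout fasted replicate 2 was the highest array of all, and knockout fasted replicates 1 and 3 were the lowest of the fasted ones. The SD among knockout fasted arrays was 0.43, against 0.08 among knockout fed arrays.

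Slc2a4, the insulin-responsive transporter, was a low signal. It stood at 5.41, 6.13 and 4.95 in knockout fasted mice, against 4.90, 4.86, 4.69 and 4.73 in knockout fed mice. Control fasted mice had 5.82, 4.96 and 6.01, against 4.78, 4.89, 4.43 and 5.09 in control fed mice. The fasted arrays thus fell into 4 that were clearly raised and 2, knockout replicate 3 and control replicate 2, that were within the control fed range. Across genotypes the gene rose by 0.75 ± 0.19, or 1.68-fold (limma, adjusted p = 0.0246), and its second, dimmer probe set by 0.57 ± 0.14 (adjusted p over all probe sets = 0.0210). This call ended without control fasted replicate 1 (adjusted p = 0.0624), control fasted replicate 3 (0.0632) or knockout fasted replicate 2 (0.0584). Slc2a4 is abundant in skeletal muscle and fat, and 0 of 5 muscle markers (0 at an unadjusted p under 0.05) and 0 of the 2 measured of 4 adipocyte markers (1 at an unadjusted p under 0.05) passed the fasting test in limma. Of the muscle markers, Ckm, Myl1, Tnnt3 and Mb averaged 3.65 to 4.21 and Acta1 6.00, and of the adipocyte markers, Adipoq and Lep averaged 3.74 and 3.86. The summed muscle signal on the linear scale ran from 121 to 145 in fasted arrays and from 117 to 138 in fed arrays, and that of the adipocyte markers from 27.8 to 31.3 in fasted and from 24.8 to 30.4 in fed arrays. Their part in the Slc2a4 result was not tested.

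Slc2a3, the neuronal transporter, ranged from 10.78 to 10.92 (median 10.82) over the 6 fasted arrays and from 10.72 to 10.95 (median 10.87) over the 8 fed arrays, so the ranges overlap almost fully. Its log2 difference was -0.02 ± 0.04 (limma, adjusted p = 0.827), and the 95% interval of -0.11 to 0.07 leaves out a change as large as that of Slc2a1. The 3 other Slc2a3 probe sets gave -0.18 to 0.03, and none passed. The representative carries the suffix of probe sets that can match more than one transcript. Markers of neurons, 9 of 9 measured, had log2 fasting differences of -0.06 to 0.05, and 0 of them passed in limma (0 at an unadjusted p under 0.05). Their summed linear signal ran from 28151 to 28681 in fasted arrays and from 28275 to 29466 in fed arrays.

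Slc2a1 is a gene of endothelium and astrocytes, and markers of both cell types differed after the fast. In the averaged fasting test 5.14% of all genes passed as higher and 4.90% as lower. Of 12 endothelial markers, 4 passed as lower (Tek, Emcn, Slco1c1 and Cdh5, with log2 differences of -0.64 to -0.30) and none as higher. In limma 8 of the 12 had an unadjusted p under 0.05, and their log2 differences ran from -0.64 to 0.27. Abcb1a, Ocln, Esam and Ly6c1 were higher in both genotypes without passing. Their summed linear signal ran from 2585 to 3286 in fasted arrays, against 2707 to 3612 in fed arrays. Of 9 astrocyte markers, Gjb6 (0.72), Fgfr3 (0.60) and Aldh1l1 (0.33) rose and Aqp4 (-0.36) fell. Their summed signal ran from 10040 to 11622 in fasted arrays, against 9573 to 10275 in fed arrays. Of 7 microglial markers 5 fell, with summed signals of 802 to 1187 in fasted and 1185 to 1383 in fed arrays. The part of these markers in the results for Slc2a1 and the other genes was not tested. Of the remaining marker lists, Kcnj8 of 4 pericyte markers and Opalin of 6 oligodendrocyte markers fell, while Mobp of the oligodendrocyte list, Dio2 of 7 tanycyte markers and Npy of the hypothalamic markers rose.

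Of the lactate transporters, 1 fell. Slc16a7, the neuronal monocarboxylate transporter, stood at 5.44, 5.12 and 5.25 in knockout fasted mice, against 5.55, 6.12, 5.55 and 5.71 in knockout fed mice. In control mice it stood at 5.24, 5.16 and 5.55 after the fast, against 6.28, 5.66, 5.80 and 5.77 in the fed state. The fasted arrays were lower within each genotype, and across genotypes they met the fed ones at 5.55. The gene fell by 0.51 ± 0.12 on the log2 scale (limma, adjusted p = 0.0160), to 0.701 of the fed level. It has 1 probe set, so no second measurement was at hand. With the run of title numbers as a covariate its difference was -0.30.

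Slc16a1, the endothelial and glial transporter, behaved unevenly. Control fasted mice had 9.67, 9.70 and 9.37, all below the 9.96, 9.98, 10.01 and 9.96 of control fed mice. Knockout fasted mice had 9.84, 9.46 and 10.13, which spread across and beyond the 9.84, 9.90, 9.71 and 9.98 of knockout fed mice. Averaged over genotypes the log2 difference was -0.22 ± 0.09 (limma, adjusted p = 0.136). In control mice alone it was -0.40 ± 0.13 (adjusted p = 0.122) and in knockout mice -0.05 ± 0.13 (adjusted p = 0.894). The interaction, which subtracts the control from the knockout fasting difference, was 0.35 ± 0.18 with an adjusted p of 1.00 and an unadjusted p of 0.0731, the smallest among the 9 genes. Both outer arrays of the knockout fasted group bore on this. Without replicate 3 the interaction was 0.19 (adjusted p = 1.00), and the averaged log2 difference was -0.30 and passed (adjusted p = 0.0235). Without replicate 2 the interaction was 0.53 (adjusted p = 0.760) and the averaged difference -0.14 (adjusted p = 0.294). A second, dim Slc16a1 probe set had an averaged log2 difference of -0.09 ± 0.07 (limma, adjusted p over all probe sets = 0.450). It was at -0.21 ± 0.09 in control mice (adjusted p = 0.279) and 0.04 ± 0.09 in knockout mice (adjusted p = 0.896). Its interaction was 0.25 ± 0.13 (unadjusted p = 0.0791).

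**Figure D2:**
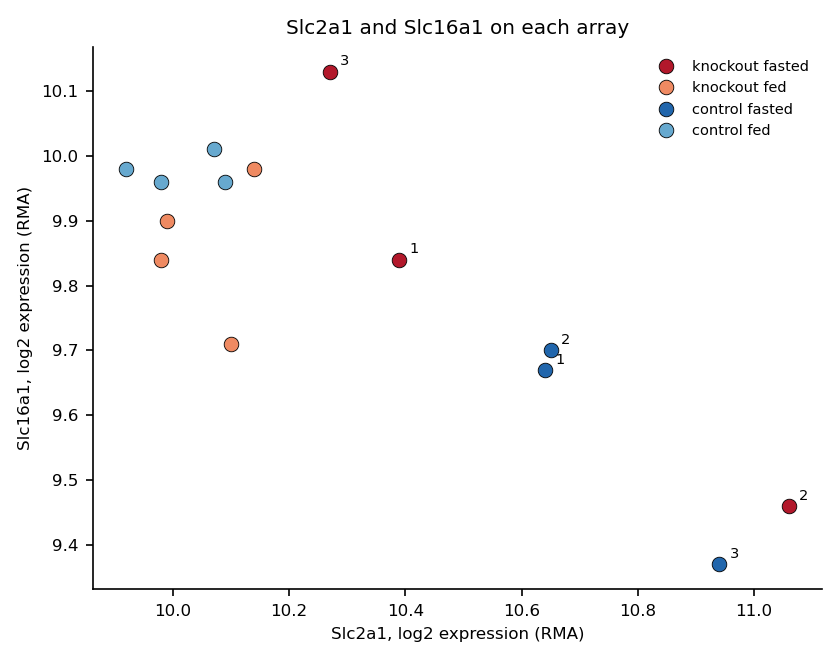
Log2 expression (RMA) of Slc2a1 (horizontal) against Slc16a1 (vertical), with 1 point per array in the colour of its group and replicate numbers beside the fasted arrays. The 8 fed arrays lie together at 9.92 to 10.14 for Slc2a1, and the fasted arrays run from knockout replicate 3, at 10.27 for Slc2a1 and 10.13 for Slc16a1, to knockout replicate 2, at 11.06 and 9.46.

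Among the 6 fasted arrays, those with more Slc2a1 tended to have less Slc16a1 (r = -0.947). This did not pass correction over 72 relations among the 9 genes (exact permutation test, adjusted p = 0.733). In fed arrays r was -0.11. The highest Slc2a1 values, in knockout fasted replicate 2 and control fasted replicate 3, went with the lowest Slc16a1 values, and the lowest Slc2a1 value among fasted arrays, in knockout replicate 3, with the highest Slc16a1 value of all 14 arrays. The same replicate 2 of the knockout fasted group also had the highest Slc2a4 and the lowest Slc16a7 of the whole set.

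Among the kinases, Pdk4 moved most. It stood at 6.04, 7.13 and 6.80 in knockout fasted mice, against 5.47, 5.47, 5.75 and 6.16 in knockout fed mice. Control fasted mice had 6.59, 7.75 and 6.91, against 6.09, 5.87, 5.82 and 5.67 in control fed mice. Only knockout fasted replicate 1 overlapped the fed arrays. Across genotypes Pdk4 rose by 1.08 ± 0.20, or 2.12-fold (limma, adjusted p = 0.00501), which placed it at rank 35 of 17097 genes by absolute log2 difference. Its SD reached 0.60 in control fasted and 0.56 in knockout fasted mice, against 0.17 in control fed and 0.33 in knockout fed mice. It has 1 probe set.

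Pdk2, the most widely expressed kinase of the family, changed less and more evenly. It stood at 7.38, 7.40 and 7.32 in knockout fasted mice, against 6.98, 6.97, 7.10 and 7.15 in knockout fed mice. Control fasted mice had 7.33, 7.56 and 7.63, against 7.17, 7.09, 6.86 and 7.04 in control fed mice. No fasted array overlapped a fed one. Pdk2 rose by 0.39 ± 0.06, or 1.31-fold (limma, adjusted p = 0.00193), the smallest adjusted p of the 9 genes, also from 1 probe set. With Slc2a1 it made 2 of 9 genes whose fasted and fed arrays did not overlap, against 3.40% of all genes.

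Pdk1, a kinase induced by hypoxia, and Pdk3, its X-linked relative, differed little. Pdk1 ranged from 8.45 to 8.54 (median 8.50) in fasted arrays and from 8.48 to 8.72 (median 8.65) in fed arrays. Its log2 difference was -0.14 ± 0.04 (limma, adjusted p = 0.0685). The call was reached without control fed replicate 4 (-0.16, adjusted p = 0.0348), without knockout fed replicate 3 (-0.16, adjusted p = 0.0496) and when the lowest 40% of genes were left out (-0.14, adjusted p = 0.0387). Its 2 other probe sets pointed the other way at 0.14 ± 0.10 and 0.03 ± 0.08, neither past the test, so the direction depends on the probe set. Pdk3 ranged from 7.35 to 7.62 (median 7.48) in fasted arrays and from 7.28 to 7.60 (median 7.48) in fed arrays, with a log2 difference of 0.01 ± 0.06 (adjusted p = 0.957).

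Within single genotypes the calls were fewer. In control mice 3 of 9 genes passed, Pdk4 (1.22 ± 0.28, adjusted p = 0.0354), Slc2a1 (0.73 ± 0.15, adjusted p = 0.0182) and Pdk2 (0.47 ± 0.08, adjusted p = 0.0102), all higher, where 2.76% of all genes passed, 1.64% higher and 1.12% lower. Fasted and fed control arrays did not overlap for 5 genes, the 3 above and, on the low side, Slc16a1 and Slc16a7, against 16.5% of all genes. Slc2a4 was at 0.80 ± 0.27 (adjusted p = 0.138) and Slc16a7 at -0.56 ± 0.16 (adjusted p = 0.0911). Pdk4 lost its call in 7 of 14 fits that left out 1 array, for example to an adjusted p of 0.102 without control fasted replicate 2 and 0.0530 without control fed replicate 1, the array with the high cortical score. Without control fasted replicate 3 none of the 9 passed.

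In knockout mice 0 of 9 genes passed in limma (6 at an unadjusted p under 0.05), where 0.696% of all genes passed. The log2 differences had the same sign as in control mice for all but Slc2a3 and Pdk3, which were near 0 in both. Pdk4 was at 0.94 ± 0.28 (adjusted p = 0.123), Slc2a4 at 0.70 ± 0.27 (adjusted p = 0.217), Slc2a1 at 0.52 ± 0.15 (adjusted p = 0.112), Pdk2 at 0.32 ± 0.08 (adjusted p = 0.104) and Slc16a7 at -0.46 ± 0.16 (adjusted p = 0.190). Fasted and fed knockout arrays did not overlap for 4 genes, Slc2a1, Slc2a4, Pdk2 and Slc16a7, against 13.0% of all genes. These values moved with single knockout fasted arrays: Slc2a1 was at 0.67 and passed without replicate 3 (adjusted p = 0.0389), and at 0.28 without replicate 2 (adjusted p = 0.320). Without replicate 2, Slc2a4 was at 0.39. Within the lower run of title numbers alone, the 3 knockout fasted arrays differed from the single knockout fed array by 1.19 for Pdk4, 0.59 for Slc2a1, 0.60 for Slc2a4, 0.39 for Pdk2 and -0.28 for Slc16a7 on the log2 scale. With 1 fed array these are values with no weight as a test.

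**Figure D3:**
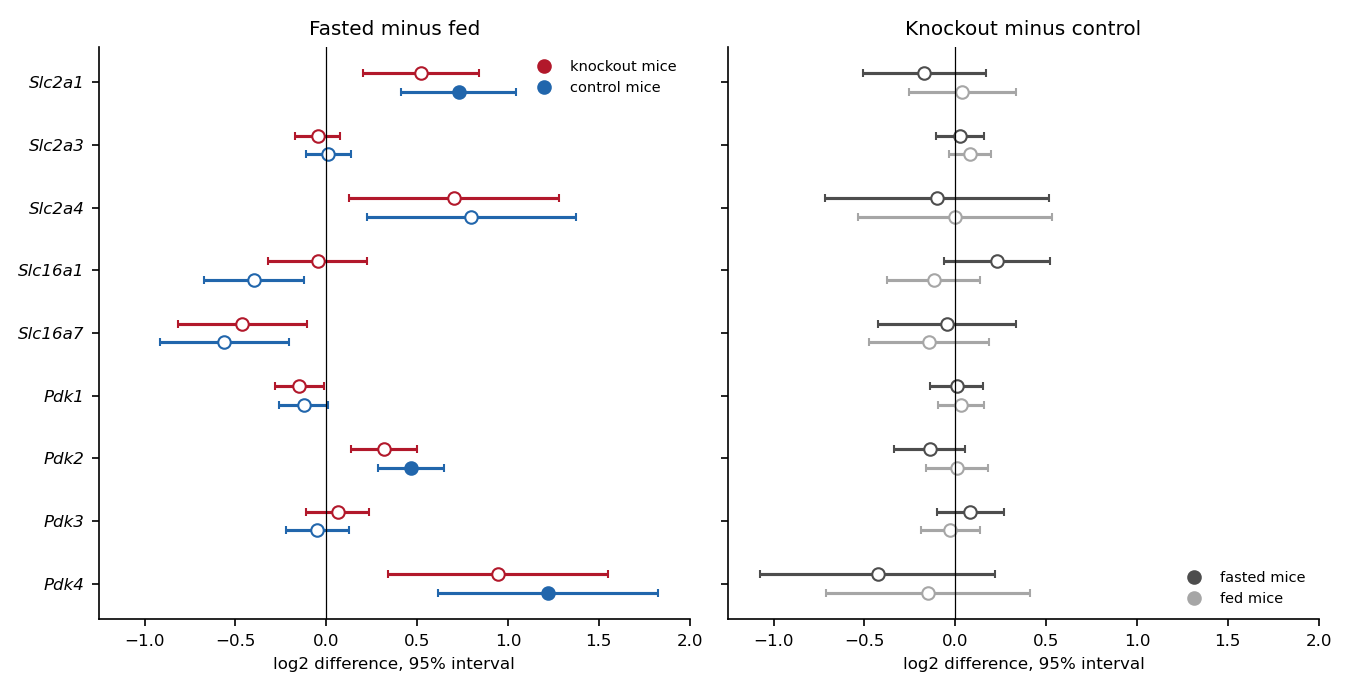
Log2 differences of the 9 genes with 95% intervals, fasted minus fed on the left (red for knockout, blue for control mice) and knockout minus control on the right (dark for fasted, light for fed mice); filled points have an adjusted p under 0.05. On the left Pdk4, Slc2a4, Slc2a1 and Pdk2 lie to the right of 0 in both genotypes with 3 filled points, all in control mice, and on the right no point is filled.

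The genotypes differed in none of these genes beyond the test. On their representative probe sets, 0 of the 9 passed in limma between knockout and control in fed mice, in fasted mice or averaged over both. The interaction gave 0 as well (0 at an unadjusted p under 0.05 in each of these contrasts). Of all genes, in the same order, 0.00585%, 0%, 0.00585% and 0% passed. On these probe sets knockout and control arrays overlapped for every gene in both feeding states. Of all genes, 2.46% were without overlap in fed mice, 7.64% in fasted mice and 0.0585% over both states. In fed mice, a dim Slc2a3 and a dim Slc16a1 probe set that do not represent their genes were without overlap. Their unadjusted p-values there were 0.0373 and 0.0060 (limma, adjusted p over all probe sets = 0.997 for both). Averaged over feeding states, the unadjusted p of this Slc16a1 probe set was 0.0339. The averaged log2 difference of knockout and control was -0.29 for Pdk4 (95% interval -0.72 to 0.14), -0.07 for Slc2a1 (-0.29 to 0.16), -0.05 for Slc2a4 (-0.46 to 0.36), -0.07 for Pdk2 (-0.19 to 0.06) and -0.10 for Slc16a7 (-0.35 to 0.15). For Slc2a3 the interval was narrow, -0.03 to 0.14. A genotype difference of 0.62 in either direction, the size of the fasting rise of Slc2a1, lies outside the averaged interval of every member except Pdk4. Choroid plexus markers varied widely among arrays. Their score (the mean centred value of 6 genes) was 0.88, 0.93 and 0.87 in knockout fasted and -1.40, 1.04, 1.03 and 1.59 in knockout fed arrays, against -0.11, -0.02 and -1.57 in control fasted and 0.81, -1.32, -1.62 and -1.13 in control fed arrays. Of these 6 markers 0 passed between genotypes in limma (5 at an unadjusted p under 0.05, averaged over feeding states), with a median log2 difference of 1.56. The score was above 0 in 6 of 7 knockout arrays and in 1 of 7 control arrays. Their part in the genotype differences of the 9 genes was not tested.

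The interaction was -0.28 for Pdk4 with a 95% interval of -1.13 to 0.58, -0.21 for Slc2a1 (-0.66 to 0.24), -0.15 for Pdk2 (-0.41 to 0.11) and -0.10 for Slc2a4 (-0.91 to 0.72). On their representative probe sets these 4 rising genes thus had smaller fasting differences in knockout than in control mice by point estimate, but the intervals all include 0. The second Slc2a4 probe set went the other way, at 0.38 in control and 0.76 in knockout mice (interaction 0.38 ± 0.27). Under the alternative fits the interaction changed sign in 5 of 19 for Slc2a4 and in 2 of 20 for Pdk4. The passing of a threshold in control mice and not in knockout mice is therefore no shown difference between the genotypes. POMC neurons were not measured apart from the other cells.

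Most genes around the transporters and kinases did not pass the averaged fasting test, which 10.0% of all 17097 genes passed. At that share lists this short hold few calls, so the counts show nothing particular to them. None of 11 other glucose transporters passed in limma (1 at an unadjusted p under 0.05), with log2 differences of -0.08 to 0.24. None of 14 measured monocarboxylate transporters and chaperones passed either (1 at an unadjusted p under 0.05), with a range of -0.33 to 0.10. Among the 22 glycolytic enzymes measured, 0 passed (1 at an unadjusted p under 0.05) and the range was -0.20 to 0.08. Ldha, the lactate dehydrogenase subunit that favours lactate, fell by 0.15 ± 0.04 (adjusted p = 0.0237), the sole call among 5 genes of lactate dehydrogenase and mitochondrial pyruvate entry.

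Of 7 measured genes of the pyruvate dehydrogenase complex and its reactivating phosphatases, 2 rose and none fell. Among all genes 5.14% were higher and 4.90% lower. Both are among the 3 phosphatase genes, and none of the 4 complex subunits passed. Pdp2, a catalytic phosphatase subunit, rose by 0.23 ± 0.06 (limma, adjusted p = 0.0432) and Pdpr, the regulatory subunit, by 0.20 ± 0.05 (adjusted p = 0.0189). In control mice alone Pdpr rose by 0.28 ± 0.07 (adjusted p = 0.0421). Both the kinases Pdk2 and Pdk4 and these 2 phosphatase genes were thus higher in fasted arrays. The other phosphatase gene, Pdp1, did not pass, with log2 differences of 0.11 in control and -0.0008 in knockout mice. Pdp1 averaged 11.37 over the arrays, whereas Pdp2 was a low signal at 5.67. The median of the 7 genes was 0.06.

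Of 17 measured regulators known for these genes, 5 rose and 1 fell, where 5.14% of all genes were higher and 4.90% lower. The rest, among them Ppara, Pparg, Foxo1 and Hif1a, did not pass, and the median of the 17 was 0.03. Txnip, an arrestin that promotes removal of glucose transporters from the cell surface, rose by 1.47 ± 0.22 (limma, adjusted p = 0.00191), and its relative Arrdc4 by 0.32 ± 0.09 (0.0346). Klf15, a fasting-responsive transcription factor, rose by 0.69 ± 0.15 (0.0116), Cebpb by 0.48 ± 0.11 (0.0164) and Foxo3, a FOXO factor that induces Pdk4 in muscle, by 0.23 ± 0.05 (0.0104). Nr3c1, the glucocorticoid receptor, fell by 0.21 ± 0.05 (0.0257). In control mice alone, Txnip (1.75 ± 0.32, adjusted p = 0.0101) and Klf15 (0.93 ± 0.21, adjusted p = 0.0328) passed as well.

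**Figure D4:**
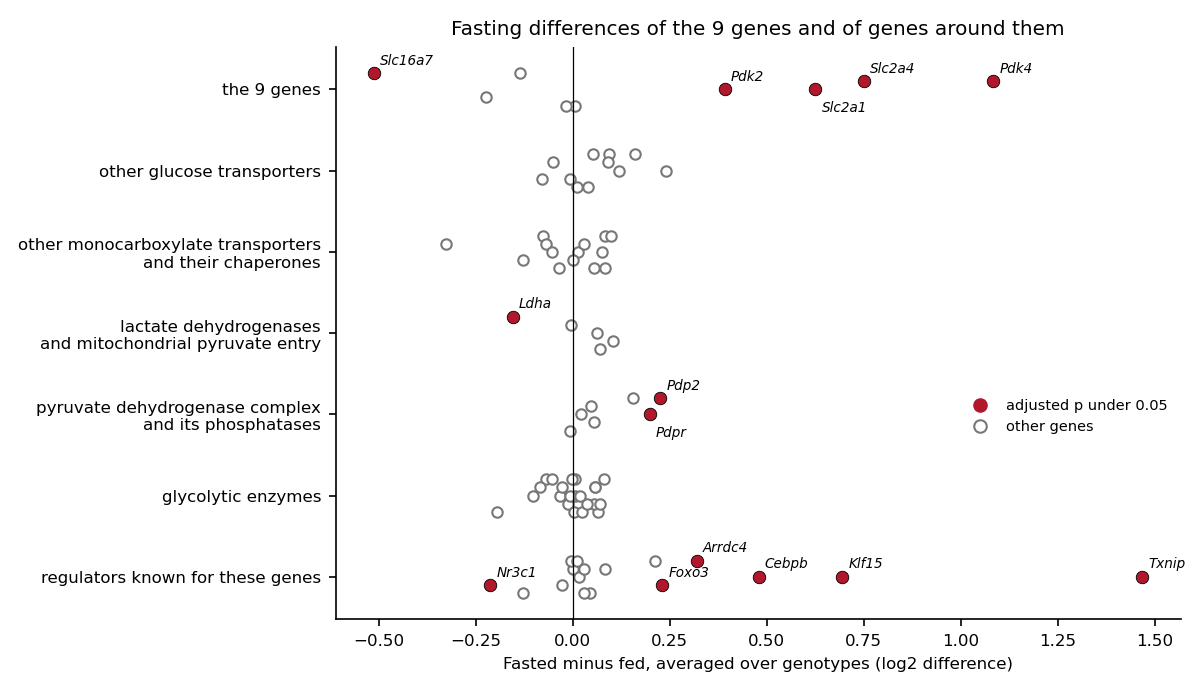
Log2 difference of fasted and fed mice, averaged over genotypes, for the 9 genes (top) and for 6 lists of related genes, with 1 point per gene, filled and named where the adjusted p is under 0.05. The glycolytic enzymes lie between -0.20 and 0.08 with no filled point, while Pdk4 at 1.08 and Txnip at 1.47 lie farthest to the right.

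For the 5 genes that passed, the genes with the most similar profile over the 14 arrays were sought by Pearson's r among 10213 genes. Since the arrays fall into fed and fasted ones, r includes that shared difference. Slc2a1 was closest to Sgk3, Cdkn1a and Fkbp5 (r = 0.987, 0.984 and 0.980), a kinase, a cell cycle inhibitor and a co-chaperone of the glucocorticoid receptor. Slc2a4 was closest to Inpp5k, Dennd1a and Sulf2 (0.949, 0.932 and 0.928). Pdk4 was closest to Cebpd, Rab31 and Plekhf1 (0.941, 0.924 and 0.920), and Pdk2 to Rtkn, Klf13 and Scrg1 (0.949, 0.942 and 0.941). Slc16a7, of lower r, was closest to Car10, Epha4 and Fmo1 (0.885, 0.880 and 0.879).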

How the data were processed

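RNA of 14 hypothalamus samples was hybridised to Affymetrix arrays. The deposited values are log2 expression values, and the submitters' processing notes name RMA and affy among the tools behind them. Versions and genome build are not given in the sources used here. RMA corrects background, puts arrays on 1 common distribution and summarises probes, which compresses differences of low probe sets. Array medians lay between 4.98 and 5.05. Precision is limited by how few arrays there are.

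Of 45141 probe sets, 28898 named 1 gene in the platform annotation, 551 more than 1, and 15692 were unnamed there. Only the first kind was used, and 17097 genes were tested. The 9 genes had 17 probe sets, 4 genes having 1 and 5 having more. Chromosomes and promoters came from RefSeq GRCm38.p6.

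All arrays entered 1 limma fit (version 3.58.1, R 4.3.3) with a mean for each group, followed by eBayes (10 residual and 3.27 prior degrees of freedom), two-sided, adjusted by the Benjamini-Hochberg method over all genes with a threshold of 0.05. The script was checked on simulated data. Errors are SE of this fit unless SD is named. The fit shares 1 estimate of the spread of a gene among all groups. For Slc2a1, Slc2a4, Slc16a1 and Pdk4 the fasted groups, with fewer arrays, varied more than the fed ones. Errors and p-values of their averaged and knockout fasting differences may therefore be too small. All lists were described by counts and medians, without a set test. Members, lists, motifs and the rule for named genes (the 9 genes, up to 6 members past the threshold of each pathway list and the 3 genes with the highest r to a called gene, of mean log2 at least 5) were chosen with earlier results of these data known. Markers were named in addition where they bore on a result. Alternatives were a filter on the lowest 40% of genes, the mean of probe sets, testing every probe set, only the groups compared, a trended and robust prior, median centring, the run of title numbers as a covariate and leaving out each array. Fits within 1 run were added after seeing the data.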

Additional observations from a re-analysis of the deposited data

Results flagged for a closer look

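In the groups of 4 arrays, 34 sets of values (17 probe sets in 2 fed groups) were searched for an array far from the others, where chance flags about 1 group in 20. In 3 of them, all in dim probe sets of Slc2a3 that do not represent the gene, 1 array lay far from the rest. On one probe set, knockout fed replicate 3 was at 6.14, against 5.62 for the next array of its group, and control fed replicate 2 was at 5.33, against 5.52. On the other, control fed replicate 4 was at 4.73, against 4.51. On the first, all knockout fed arrays were above the control fed arrays, with a log2 difference of 0.25 ± 0.11 (limma, adjusted p over all probe sets = 0.997).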

How the results depend on the processing

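The 5 averaged fasting calls (Slc2a1, Slc2a4, Slc16a7, Pdk2 and Pdk4) all held with the mean of probe sets, with every probe set tested, with median centring and with the trended and robust prior. The 40% filter removed Slc2a4 from the test and added Pdk1. With the run of title numbers as a covariate the count was 0 in the average and 0 in control mice; this covariate rests on 1 fed array. When 1 array was left out, 4 to 6 genes passed in the average, 0 to 4 in control mice and 0 to 1 in knockout mice, and 0 in each genotype contrast and the interaction. In control mice the count was 1 without control fed replicate 2 and 0 without control fasted replicate 3. With only the groups compared it was 2, as Pdk2 missed the threshold (adjusted p = 0.0522). Slc16a1 passed in control mice when its probe sets were averaged (-0.30, adjusted p = 0.0378) and without knockout fasted replicate 2 (-0.40, adjusted p = 0.0348), and Slc2a4 without control fasted replicate 2 (1.12, adjusted p = 0.0434). Of 1307 single values under 23 settings, 22 lost a call, 8 gained one, none changed sign with a call on either side, and 60 changed sign with none. The cause of these shifts was not tested. No paired analysis was possible because the labels name no pairs of arrays, and the title numbers, whose meaning is not stated, are all different. Slc2a4 and Slc16a7 were dim, which limits their precision.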

Other observations

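Relations among the 9 genes were computed within the 6 fasted and within the 8 fed arrays, 72 in all, with two-sided exact permutation tests. The relation of Slc2a1 and Slc16a1 in fasted arrays had the smallest raw p, with r = -0.947 (exact permutation p = 0.0111, adjusted over the 72 relations 0.733) and rho = -0.886 (exact permutation p = 0.0333, adjusted 0.576). Without the 2 arrays farthest from the median of Slc2a1, r was -0.980 (n = 4). In fed arrays, where Slc2a1 varied little, it did not hold: r was -0.109 (exact permutation p = 0.799, adjusted 0.890) and rho -0.03 (exact permutation p = 0.951). The relation among fasted arrays therefore fails the correction for the number of relations and is a description of these 6 arrays, 3 of each genotype.

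The second Slc16a1 probe set, a dim one, was at 4.13, 4.30, 4.29 and 4.27 in knockout fed mice, below the 4.35, 4.75, 4.57 and 4.43 of control fed mice. Its log2 difference of knockout and control in fed mice was -0.28 ± 0.09 (limma, adjusted p over all probe sets = 0.997), whereas the bright probe set that represents the gene was at -0.12 ± 0.12 (adjusted p = 0.995).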
